A study of Mus musculus with 12 samples.

Results

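Striated muscle of mice lacking Lbr was compared with striated muscle of wild-type mice by RNA sequencing. Of the 22552 genes in the deposited table, 12141 averaged at least 1 FPKM over the 3 striated muscle columns, and 12080 of these stood above 0 in both columns compared and form the comparison. FPKM is the number of sequenced fragments scaled to the length of the transcript and to the mapped fragments of the library. The whole study held 12 samples, 6 of cultured myoblasts and 6 of striated muscle. The knockout group was homozygous for the deletion labelled LBR_KO, and its 2 libraries were deposited as 1 column. The wild-type group was likewise 2 libraries in 1 column and served both muscle knockouts. The remaining muscle column, 2 libraries labelled LMNA_KO that lack lamins A and C, entered the filter on the mean and is quoted beside the others. All mice were C57Bl/6, and knockouts came from heterozygous parents, with wild types taken from the same litters. That matching is lost in the pooled wild-type column, which served 2 sets of litters. The labels name neither the muscle, the age and sex of the animals nor the deleted part of Lbr. No column has a replicate error, so no difference between muscle groups has a test or a p-value. Throughout, a gene is said to have risen or fallen when its log2(FPKM + 1) differed by at least 1 between the columns, knockout minus wild type, which is called a 2-fold difference. Changes of scarce genes are understated by the added 1, and the sequencing depth behind each value is unknown. Values given in threes are those of the Lbr knockout, the wild type and the Lmna knockout in that order, and a value in parentheses after them is the log2 difference between Lbr knockout and wild type.

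The lamin B receptor is a protein of the inner nuclear membrane. Its nuclear end binds B-type lamins and the heterochromatin protein HP1 and so tethers heterochromatin to the nuclear edge, and its membrane part is a sterol C14-reductase that acts in cholesterol synthesis alongside the related enzyme TM7SF2. Loss of the protein is best known for hyposegmented neutrophil nuclei and for skin defects in mice. In differentiated muscle fibres the tethering of heterochromatin is known to rest mainly on lamins A and C.

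Leukocyte, lymph node and antigen presentation genes made up much of what was higher in the knockout column, myelin genes were higher as well, and bone genes, pancreatic enzyme genes and the brown fat genes Ucp1 and Cidea were lower. Genes of the contractile apparatus differed little. In all 157 genes rose, which is 1.30% of those compared, and 32 fell, which is 0.265%, so that 1.56% changed in either direction. The 12 leukocyte and immune lists together held 199 compared genes out of 283 listed, of which 57 rose and 1 fell. These 57 were 36.3% of all rises. Some of them are also on lists of other tissues, such as the complement gene Cfd on the adipocyte list. The 11 muscle lists held 212 compared genes out of 216 listed, of which 1 rose and 0 fell. The 3 lists of bone, cartilage and tendon held 27 compared genes out of 46 listed, and 5 of them fell. Over all 58 lists, 947 of 1182 listed genes were compared, and they covered 47.1% of the rises and 46.9% of the falls. A list gene outside the comparison had a mean under 1 FPKM or was listed at 0 in a compared column. The mean takes in both knockout columns, so a gene scarce in the wild type could enter through them.

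The knockout column lay slightly above the wild type for most genes. The median log2 difference over all 12080 genes was 0.10, with an interquartile range of -0.06 to 0.27 and an SD of 0.33, and 66.6% of genes were above their wild-type value. List medians below are to be read against this 0.10. Genes that rose were mostly scarce in the wild type. Their median level was 1.54 FPKM in the wild type and 5.07 in the knockout, and 132 of the 157 were under 5 FPKM in the wild type. Genes that fell had a median of 7.56 FPKM in the wild type and 1.21 in the knockout. Among the 567 genes with a mean of 100 FPKM or more, 6 rose and 0 fell, whereas 67 of the 3243 genes between 2 and 5 FPKM rose. The nearest genes inside and outside the fold limit had log2 differences of 1.01 and 0.996 above 0, and of -1.01 and -0.998 below it. The plot of difference against level shows the sarcomere genes at the right near 0 and the lymphocyte genes at low levels above the limit.

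**Figure D1:**
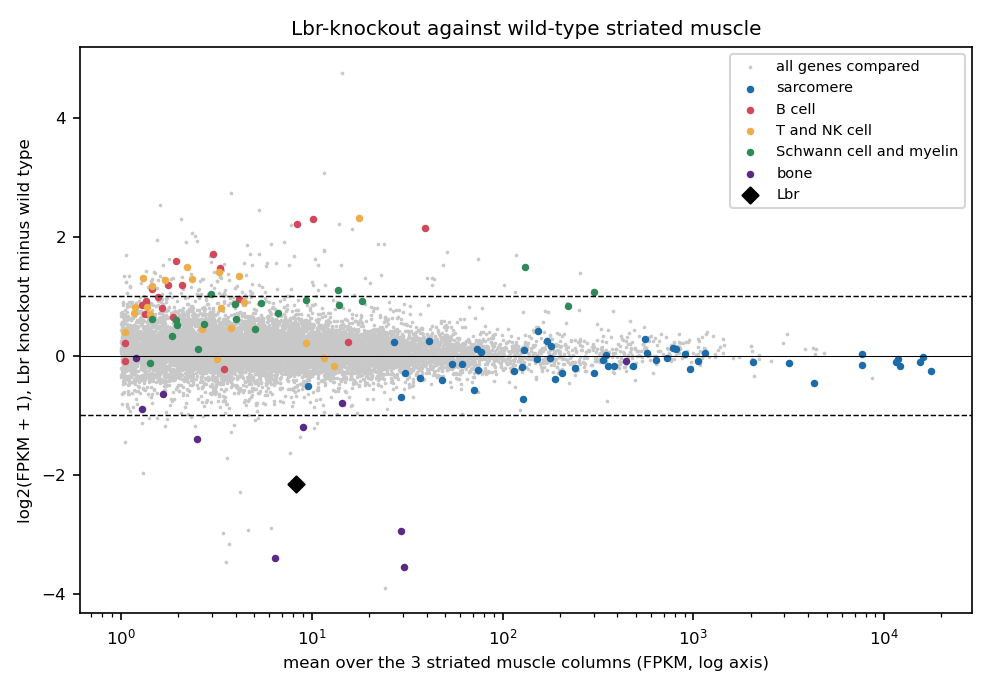
Difference between Lbr-knockout and wild-type muscle on the log2(FPKM + 1) scale (vertical axis) against the mean FPKM of the 3 muscle columns (horizontal log axis). Each grey point is 1 of 12080 genes, coloured points are members of 5 lists, the black diamond is Lbr at -2.16 and the dashed lines mark the 2-fold limits, which 157 genes pass above and 32 below.

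The tissue label was checked against defining markers of 15 cell types, 5 genes each. The skeletal muscle markers Acta1, Ckm, Myh4, Mylpf and Tnnt3 summed to 54549 FPKM in the knockout, 56983 FPKM in the wild type and 44116 in the Lmna knockout. The heart markers summed to 51.2, 51.9 and 33.6 FPKM in the same order, with the atrial light chain gene Myl7 at 0 in the wild-type and Lmna-knockout columns. The muscle was therefore skeletal by its markers in all 3 columns. Xist, the RNA of the inactive X chromosome, was near 0 in the knockout (0.0988 FPKM) and in the wild type (0.0153 FPKM) but at 11.4 FPKM in the Lmna knockout. The Y-linked Ddx3y was at 16.6, 19.5 and 27.5 FPKM in the same order, so the 2 columns compared were alike in these sex-linked genes. The 10 most abundant genes took 23.6% of the summed FPKM in the knockout and 26.5% in the wild type.

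Lbr itself stood at 1.87 FPKM in the knockout, 11.8 FPKM in the wild type and 11.3 in the Lmna knockout, so it fell with a log2 difference of -2.16 and was low in its own knockout column alone among the 3. In myoblasts labelled as lacking Lbr it stood at 7.71 FPKM against 16.1 FPKM in their own wild type. The other 20 compared genes of the nuclear envelope and lamina list all stayed within 2-fold, and the median over the list was 0.12. Lmna was at 62.8 FPKM in the Lbr knockout and 59.5 FPKM in the wild type (0.08). Lmnb1, encoding lamin B1, was at 6.61 and 5.77 FPKM (0.17). The lamin B2 gene Lmnb2 was at 6.45 FPKM in the knockout, 9.13 FPKM in the wild type and 3.59 in the Lmna knockout (-0.44). Emd, which encodes the inner membrane protein emerin, was at 3.53 and 3.73 FPKM (-0.06). The largest difference after Lbr belonged to Tmem194, a gene for a nuclear envelope protein, at 1.59 against 0.643 FPKM (0.66).

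Partners of the lamin B receptor in chromatin and in sterol synthesis showed no change of 2-fold. The 17 heterochromatin genes compared, which encode HP1 proteins, histone and DNA methyltransferases and their cofactors, had a median of 0.11 and ran from -0.18 to 0.39. At the lower end was Cbx1, encoding HP1 beta, at 5.98 against 6.92 FPKM. At the upper end was the H3K9 methyltransferase gene Ehmt2, at 15.2 against 11.4 FPKM. Of the 17 compared genes of cholesterol synthesis 13 were above their wild-type value, with a median of 0.15. The decarboxylase gene Mvd was at 6.04 FPKM in the knockout, 2.89 FPKM in the wild type and 7.32 in the Lmna knockout (0.86). Tm7sf2, the gene of the other C14-reductase, was scarce in every column, at 1.20 FPKM in the knockout, 0.214 FPKM in the wild type and 0.618 in the Lmna knockout, and its mean was under the filter. Hmgcs1, the cytosolic HMG-CoA synthase gene, was listed at 0 in all 3 columns. The 13 compared genes of sterol regulation had a median of 0.29, and none changed by 2-fold. The largest difference among them was that of Nr1h2, which encodes the oxysterol receptor LXR beta, at 10.3 against 6.75 FPKM (0.55).

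Fibre genes were close to their wild-type values. Of 52 sarcomere genes, 0 rose and 0 fell, 36 were below the wild type and 16 above, and the median was -0.11. The stretch-sensing LIM protein gene Csrp3 was at 48.1 FPKM in the knockout, 80.2 FPKM in the wild type and 255 in the Lmna knockout (-0.72). Actc1, the cardiac actin gene that is expressed in developing muscle, was at 4741, 6501 and 1642 FPKM (-0.46). Mybph, a myosin-binding protein gene, was at 204, 153 and 104 FPKM (0.41). These were among the 6 sarcomere differences of greatest size, and each is below the 2-fold limit. The 13 fast-fibre genes had a median of -0.11. On the linear scale the light chain gene Myl1 had the largest drop of any gene, from 20559 FPKM in the wild type to 17287 FPKM in the knockout (-0.25), followed by the calcium buffer gene Pvalb, from 11835 to 9095 FPKM (-0.38). Neither comes near 2-fold.

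The 12 slow-fibre genes had a median of -0.10, and 1 rose. That gene was Sln, which encodes sarcolipin, a small inhibitor of the sarcoplasmic calcium pump, at 261 FPKM in the knockout, 98.9 FPKM in the wild type and 406 in the Lmna knockout (1.39). Both knockout columns were thus above the wild type for Sln. The oxygen store gene Mb lay in the other direction at 282, 481 and 294 FPKM (-0.77), again with both knockout columns on 1 side. Sln was also the single change among the 21 calcium handling genes, whose median was 0.08. Orai1, the store-operated channel gene, was at 14.2 against 10.1 FPKM (0.45), and Casq1, the calsequestrin gene of fast fibres, at 2005 against 2539 FPKM (-0.34).

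Developmental and regenerating muscle genes did not change by 2-fold in either direction (16 compared, median 0.03). The embryonic myosin gene Myh3 was at 24.1 FPKM in the knockout, 29.8 FPKM in the wild type and 38.4 in the Lmna knockout. The perinatal Myh8 was at 581, 481 and 618 FPKM, so perinatal myosin was present in quantity in every column. The non-coding H19 had the largest linear rise of any gene, from 2676 FPKM in the wild type to 3452 FPKM in the knockout, a log2 difference of 0.37. The 20 compared satellite cell genes had a median of 0.06 and no change. Of the 18 compared neuromuscular junction genes 16 were above the wild type (median 0.28), led by Gadd45a, a gene induced by denervation, at 39.0 against 27.4 FPKM (0.49). None of them reached 2-fold.

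Energy metabolism and wasting genes were nearly level. The 42 respiratory chain genes had a median of -0.03 and the 21 glycolytic genes one of 0.11, with 0 changes in either list. The 22 atrophy genes had a median of 0.12 in the Lbr knockout and of 0.58 in the Lmna knockout, each against the shared wild type. The ubiquitin ligase gene Fbxo32, which marks wasting muscle, was at 14.5 FPKM in the Lbr knockout, 9.41 FPKM in the wild type and 50.1 in the Lmna knockout (0.58). The 23 genes of fasting and fatty acid oxidation had medians of 0.14 and 0.69 in the same order. The glucocorticoid response list, 16 genes, had medians of 0.24 and 0.81. Within that list the lipase inhibitor gene Angptl4 was at 37.9, 20.5 and 63.2 FPKM (0.86). Both knockouts share the wild-type column here, and the difference between them was not tested.

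**Figure D2:**
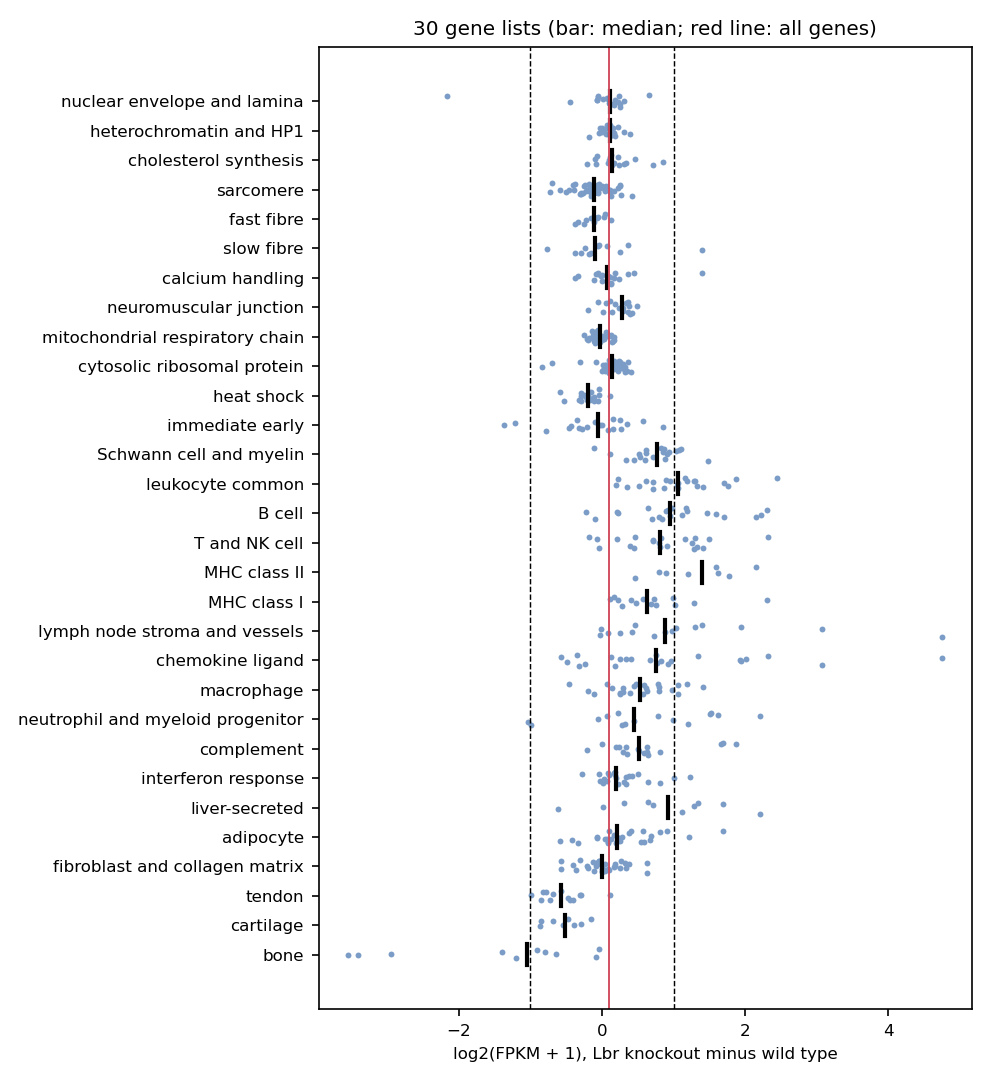
Log2(FPKM + 1) difference between Lbr-knockout and wild-type muscle for the members of 30 gene lists, 1 point per gene, with the list median as a black bar, the all-gene median of 0.10 as a red line and the 2-fold limits dashed. Sarcomere, fibre and envelope lists sit near the red line except for Lbr and Sln, leukocyte and MHC lists lie to the right, and tendon, cartilage and bone lie to the left.

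Genes shared by all leukocytes were higher in the knockout. All 23 compared genes of the common leukocyte list were above the wild type, 13 of them rose, and the median was 1.06. The tetraspanin gene Cd37, abundant in B cells, was at 7.64 FPKM in the knockout, 0.584 FPKM in the wild type and 7.71 in the Lmna knockout (2.45). Cd52, a surface glycoprotein gene of lymphocytes, was at 33.7, 8.50 and 24.4 FPKM (1.87), and Coro1a, encoding a leukocyte actin regulator, at 17.0, 4.29 and 13.4 FPKM (1.76). The phosphatase gene Ptprc, encoding CD45, was at 4.71, 1.27 and 3.90 FPKM (1.33). For each of these 4 genes the wild-type column was the lowest and both knockouts stood well above it. In bulk tissue, more cells of a type and more RNA per cell cannot be told apart.

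B cell genes were prominent among the rises. Of 21 compared B cell genes 9 rose and 0 fell, with a median of 0.95. Cd79a and Cd79b, which encode the signalling chains of the B cell receptor, were at 18.4 and 15.7 FPKM in the knockout, and at 2.93 and 2.59 FPKM in the wild type. In the Lmna knockout they stood at 9.08 and 6.84 FPKM. The log2 differences were 2.30 and 2.22. The IgM Fc receptor gene Faim3 was at 5.40, 0.968 and 2.73 FPKM (1.70), and Ms4a1, encoding CD20, at 2.80, 0.672 and 1.82 FPKM (1.19). Not every member moved this way: Vpreb3, a gene of B cell precursors, was at 2.74 FPKM in the knockout, 3.35 FPKM in the wild type and 4.27 in the Lmna knockout (-0.22). The 5 defining B cell markers summed to 45.0, 9.47 and 22.9 FPKM, with none at 0.

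T and NK cell genes showed 8 rises among 21 compared and 0 falls, with a median of 0.82. The T cell receptor chains Cd3d and Cd3e were at 3.43 and 2.61 FPKM in the knockout, against 0.576 and 0.503 FPKM in the wild type (1.49 and 1.26). In the Lmna knockout they were at 2.67 and 1.97 FPKM. A further chain, Cd3g, stayed under 2-fold at 3.31, 2.16 and 2.49 FPKM (0.45). The chemokine gene Ccl5, made by effector T and NK cells, was at 27.6, 4.76 and 20.9 FPKM (2.31). Other effector genes of the list were too scarce to compare. Gzma, Gzmb, Gzmk and Prf1 were at most at 0.448 FPKM in any muscle column. Nkg7 and Klrd1 were at 1.47 and 1.63 FPKM in the knockout, against 0.302 and 0.498 FPKM in the wild type. These genes were chosen after their values were seen. Ccr7, the receptor that guides cells into lymph nodes, was at 3.83, 0.981 and 2.26 FPKM (1.29). In contrast Thy1, which muscle stroma and nerve also express, was at 14.1, 16.0 and 8.91 FPKM (-0.18). The 5 T cell markers summed to 12.6, 4.32 and 10.4 FPKM.

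Genes of lymph node stroma and of the chemokines that organise lymphoid tissue rose with them. Of 15 compared stroma and vessel genes 6 rose (median 0.89), and of 23 compared chemokine genes 7 rose (median 0.76), with 0 falls in either list. Ccl19, the ligand of Ccr7 made by reticular cells of lymph nodes, was at 21.7 FPKM in the knockout, 1.70 FPKM in the wild type and 11.2 in the Lmna knockout (3.08). The B cell attractant gene Cxcl13 was at 3.46, 0.164 and 1.00 FPKM (1.94). Glycam1, a mucin gene of high endothelial venules, the entry vessels of lymph nodes, was at 54.2, 21.3 and 53.2 FPKM (1.30). Of these 3, Cxcl13 was also at least 2-fold above the Lmna knockout. The dendritic cell chemokine genes Ccl22 (4.61, 0.397 and 2.35 FPKM) and Ccl17 (2.78, 0.489 and 1.51 FPKM) followed the same order of columns. Ccl8, a monocyte attractant gene, was at 4.68, 0.492 and 2.34 FPKM (1.93). None of 4 listed genes that lymphatic endothelium expresses changed by 2-fold: Lyve1 was at 4.99, 5.02 and 3.29 FPKM (-0.01), Flt4 at -0.03, Pdpn at 0.08 and Prox1 at 0.42. These 4 were picked with their values known. The 5 lymph node stroma markers summed to 104, 23.6 and 83.2 FPKM. That sum counts the row Ccl21a,Gm1987, at 26.1, 0.00249 and 17.2 FPKM. It leaves out the copy row Gm1987, at 0.0375, 10.5 and 0.0820 FPKM, so the rise of the sum is overstated.

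MHC class II genes present antigen on B cells, dendritic cells and macrophages. They had the highest median of the lists in this group, 1.39, with 5 of 8 compared genes up and all 8 above the wild type. Of the 4 listed genes not compared, H2-Oa (0.79), H2-Eb2 (0.38) and Ciita (0.36) had a mean under the filter. The pseudogene H2-Ea-ps was at 0 in both compared columns. With no filter on the mean, the median of the list was under 1. The invariant chain gene Cd74 was at 65.4 FPKM in the knockout, 14.0 FPKM in the wild type and 38.5 in the Lmna knockout (2.15). The classical chains H2-Aa, H2-Eb1 and H2-Ab1 were at 16.5, 16.8 and 16.5 FPKM in the knockout and at 4.14, 4.78 and 6.66 FPKM in the wild type (1.77, 1.62 and 1.20). H2-Ob, a B cell modulator of peptide loading, was at 3.36 against 0.449 FPKM (1.59). The class II peptide loading genes H2-DMa, H2-DMb1 and H2-DMb2 stayed under 2-fold, at 0.89, 0.47 and 0.80.

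The promoters of 3 class II genes that rose are shown because these genes moved together in value and share a known arrangement of boxes. They are RefSeq sequences of build GRCm38.p6, 250 bases before to 50 bases after the start, and not of the files' build. H2-Eb1 lies at chr17:34305617-34305916 on the plus strand, H2-Ob at chr17:34238655-34238954 on the plus strand and H2-Aa at chr17:34287774-34288073 on the minus strand. Capitals mark the Y box core TGATTGG, the site of NF-Y, and ATGATGC, part of the X box at which RFX and CREB family factors bind, each searched on both strands. No matches of the 2 patterns overlap in these windows.
H2-Eb1: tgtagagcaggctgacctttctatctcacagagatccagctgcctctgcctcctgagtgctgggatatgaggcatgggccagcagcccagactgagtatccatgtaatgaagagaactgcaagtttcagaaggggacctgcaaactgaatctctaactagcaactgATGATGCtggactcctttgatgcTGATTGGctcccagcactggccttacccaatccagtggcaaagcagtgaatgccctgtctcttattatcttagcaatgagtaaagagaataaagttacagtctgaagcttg
H2-Ob: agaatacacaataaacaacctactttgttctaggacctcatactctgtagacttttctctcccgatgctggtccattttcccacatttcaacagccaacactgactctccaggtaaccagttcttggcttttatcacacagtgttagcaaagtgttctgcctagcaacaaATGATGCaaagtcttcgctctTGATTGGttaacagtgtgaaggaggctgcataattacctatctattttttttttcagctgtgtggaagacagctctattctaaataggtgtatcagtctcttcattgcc
H2-Aa: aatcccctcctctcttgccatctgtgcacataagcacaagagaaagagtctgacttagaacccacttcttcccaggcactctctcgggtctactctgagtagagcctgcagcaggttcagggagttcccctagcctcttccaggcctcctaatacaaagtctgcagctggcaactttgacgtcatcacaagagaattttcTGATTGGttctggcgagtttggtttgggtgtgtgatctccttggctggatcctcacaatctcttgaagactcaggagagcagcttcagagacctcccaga
All 3 windows hold the Y box core, which 7.82% of 32841 promoters hold. H2-Eb1 and H2-Ob also hold ATGATGC, found in 807 promoters or 2.46%, and no match of it was found in H2-Aa. Both together stood in 57 promoters, 0.174% of all, among them those of H2-Eb1, H2-Ob, H2-DMb1 and H2-DMb2. The letters of the X box part were written after these promoters had been read, so its frequency is a description of these sequences. H2-Ab1 had no entry, and no match of either pattern was found in the windows of H2-DMa. The differences of the 4 class II genes with both boxes ran from 0.47 for H2-DMb1 to 1.62 for H2-Eb1.

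MHC class I and interferon genes were also higher, with smaller medians. Of 14 compared class I genes 3 rose and all 14 were above the wild type (median 0.63). H2-K1, a classical class I chain, was at 61.0, 24.5 and 46.2 FPKM (1.28), and the peptide transporter gene Tap1 at 3.86, 1.41 and 3.38 FPKM (1.02). Of 23 compared interferon response genes 2 rose, Ifi27l2a and Ifi203, at 1.23 and 1.01, and the median of the list was 0.20.

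Macrophage genes were higher. Of 24 compared genes 21 were above the wild type and 3 below, 4 rose, 0 fell and the median was 0.53. The protease gene Ctss, which also processes the invariant chain, was at 13.9 FPKM in the knockout, 5.50 FPKM in the wild type and 11.2 in the Lmna knockout (1.19). Marco, a scavenger receptor gene of certain macrophages, was at 1.91, 0.0889 and 2.06 FPKM (1.42). Among the 3 below, Cd68 was at 3.81, 5.65 and 6.83 FPKM (-0.47) and Fcer1g at 11.1, 12.9 and 17.6 FPKM (-0.19). The 5 macrophage markers summed to 99.3 FPKM in the knockout, 74.2 FPKM in the wild type and 93.2 in the Lmna knockout, with 4 of the 5 above the wild type. Mast cell genes showed 0 changes among 7 compared (median 0.22).

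Neutrophil genes were mostly above the wild type. Of 15 compared 12 were above it and 3 below, 5 rose and 1 fell, with a median of 0.45. The calgranulin genes S100a8 and S100a9, abundant in mature neutrophils, were at 90.7 and 56.8 FPKM in the knockout and at 28.8 and 19.2 FPKM in the wild type (1.62 and 1.52). In the Lmna knockout they were at 103 and 70.7 FPKM. Retnlg was at 4.91, 1.06 and 8.57 FPKM (1.52). Camp, a granule protein gene of developing neutrophils, was lower in the Lbr knockout, at 5.44 FPKM against 11.7 FPKM in the wild type and 23.7 in the Lmna knockout (-0.99). The gelatinase gene Mmp9, which osteoclasts also make, fell, at 0.546, 2.16 and 4.26 FPKM (-1.03). The neutrophil markers summed to 159, 63.4 and 209 FPKM.

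Complement showed 3 rises among 17 compared genes and a median of 0.51. C3, the central component, was at 10.2 FPKM in the knockout, 2.05 FPKM in the wild type and 6.09 in the Lmna knockout (1.88), and C4b at 4.68, 0.789 and 3.29 FPKM (1.67). Cfd, factor D, is made by fat cells and is described with them. The summed markers of B cells, T cells, neutrophils and lymph node stroma were above the wild type in both knockout columns. The neutrophil sum was highest in the Lmna knockout and the others in the Lbr knockout. The part of these cell types in the results was not tested. The plot of summed markers gives all 15 cell types.

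**Figure D3:**
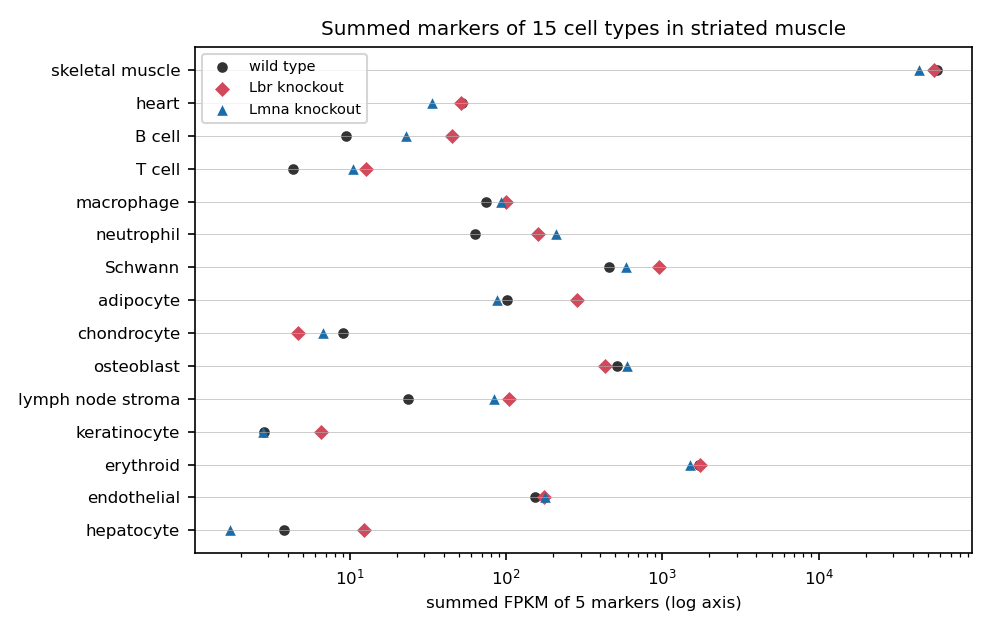
Summed FPKM of 5 defining markers for each of 15 cell types (horizontal log axis) in wild-type, Lbr-knockout and Lmna-knockout muscle, 1 point per pooled column. Skeletal muscle, heart, erythroid and endothelial sums nearly coincide between wild type and Lbr knockout, whereas B cell (9.47 to 45.0), lymph node stroma (23.6 to 104) and adipocyte (101 to 286) sums are higher and the chondrocyte sum (9.003 to 4.66) is lower.

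Myelin genes of Schwann cells, the glia that wrap motor and sensory axons, were higher in the knockout. Of 20 compared genes 19 were above the wild type and 4 rose, with a median of 0.78. Myelin basic protein, Mbp, was at 207 FPKM in the knockout, 73.4 FPKM in the wild type and 114 in the Lmna knockout (1.48). Mal, a myelin proteolipid gene, was at 19.5, 8.54 and 13.3 FPKM (1.10), and Mag, the myelin-associated glycoprotein gene, at 4.79, 1.83 and 2.24 FPKM (1.03). For these 3 the Lbr knockout was the highest column, and the wild type the lowest. The glial gene S100b was at 3.26, 2.94 and 1.44 FPKM (0.11), a member chosen after its values were seen. Axonal and neuronal genes were mostly too scarce to compare: of 17 listed, 4 passed, and none of them changed (median 0.12). The 5 Schwann cell markers summed to 954, 454 and 587 FPKM, and their part in the result was not tested.

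Skeletal tissue genes were lower. All 10 compared bone genes were below the wild type and 5 fell, with a median of -1.05 in the Lbr knockout and 0.29 in the Lmna knockout. Osteopontin, Spp1, a matrix protein of bone cells, was at 1.22 FPKM in the Lbr knockout, 24.9 FPKM in the wild type and 65.0 in the Lmna knockout (-3.54). Bone sialoprotein, Ibsp, was at 0.157, 11.3 and 7.77 FPKM (-3.41). Osteocalcin, Bglap, was at 1.90, 21.3 and 65.1 FPKM (-2.94), and its copy Bglap2 was listed at 0 in the Lbr knockout against 13.5 and 38.2 FPKM. Summed over both copies, osteocalcin was at 1.90, 34.8 and 103 FPKM (-3.62). The osteocyte gene Dmp1 fell at 0.328, 2.49 and 4.66 FPKM (-1.39), and the osteoclast protease gene Ctsk fell at 4.04, 10.6 and 12.2 FPKM (-1.20). Mmp13, a collagenase gene of bone and growth plate, was at 0.293, 5.36 and 6.92 FPKM (-2.30), and the protease inhibitor gene Timp1 at 1.89, 8.01 and 13.1 FPKM (-1.64). In all of these the Lbr knockout alone was low among the 3 columns. The fibrillar collagen gene Col1a1, which fibroblasts share, was at 426, 453 and 459 FPKM (-0.09), so the osteoblast marker sum, 430 FPKM against 511 and 597 FPKM, is mostly that gene.

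Tendon and cartilage genes were lower without passing 2-fold. Of 13 compared tendon genes 12 were below the wild type (median -0.57), and all 8 compared cartilage genes were (median -0.51). The tendon membrane protein gene Tnmd was at 35.0 FPKM in the knockout, 70.3 FPKM in the wild type and 77.9 in the Lmna knockout (-0.99), just outside the fold limit. Scx, the tendon transcription factor gene, was at 2.95, 6.00 and 6.33 FPKM (-0.83), and Col2a1, the collagen of cartilage, at 1.43, 3.41 and 1.69 FPKM (-0.86). Fibroblast and collagen matrix genes were even, with 0 changes among 33 and a median of 0.00. The chondrocyte markers summed to 4.66, 9.003 and 6.69 FPKM, and their part in the result was not tested.

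The 13 compared erythroid genes had a median of -0.00. Car1, a carbonic anhydrase gene of late precursors, was at 0.262, 1.23 and 1.57 FPKM (-0.82). The haemoglobin row Hba-a1,Hba-a2 was at 1159, 1113 and 1054 FPKM, a row that near-identical globin copies share.

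For a few of the genes that fell, the wild-type column alone was high. Ucp1, the uncoupling protein of brown fat, was at 3.61 FPKM in the Lbr knockout, 67.8 FPKM in the wild type and 1.23 in the Lmna knockout (-3.90), which was the largest fall of the comparison. Cidea, a lipid droplet protein gene of brown fat, was at 1.20, 15.5 and 1.71 FPKM (-2.90). The other 6 compared genes of the brown fat list, which muscle also expresses in part, did not change. Digestive enzyme genes of the pancreas behaved alike: Pnliprp1 was at 0.381 and 9.90 FPKM and listed at 0 in the Lmna knockout, Amy2a5 at 0.183, 3.63 and 0.101 FPKM, and Cela3b at 0.268, 2.46 and 0.414 FPKM. These were 3 falls among 5 compared of 18 pancreas genes, a list added after the values were seen, whose summed level was 5.82, 42.2 and 4.18 FPKM. The insulin gene Ins2, listed at 0 in the Lbr knockout, stood at 3.31 FPKM in the wild type and 0.368 in the Lmna knockout, and was also chosen after its values were seen. In each of these genes the wild type was high and both knockouts were low.

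White fat, skin and liver genes rose in part. Of 28 compared adipocyte genes 2 rose (median 0.21). The factor D gene Cfd was at 220 FPKM in the Lbr knockout, 67.6 FPKM in the wild type and 66.6 in the Lmna knockout (1.69). Resistin, Retn, was at 36.6, 15.1 and 8.87 FPKM (1.22). Adipoq, the adiponectin gene, was at 21.0, 10.8 and 9.14 FPKM (0.90), and Lep, the leptin gene, at 1.41, 2.05 and 0.323 FPKM (-0.34). Of 10 compared liver-secreted genes 5 rose (median 0.92 in the Lbr knockout and -0.35 in the Lmna knockout). Above the wild type were 9 of them, and 1 was below, Apoc1 at 8.16, 13.1 and 9.30 FPKM (-0.62). Other plasma protein genes lay that way too. Apoc3 was listed at 0 in the Lbr knockout, against 2.55 and 1.51 FPKM, and Orm1 was at 3.35, 6.38 and 0.816 FPKM (-0.76). Alb was at 4.53, 1.54 and 0.281 FPKM (1.12), the fetuin gene Ahsg at 2.67, 0.132 and 0.393 FPKM (1.70), and the haptoglobin gene Hp, which myeloid and fat cells also express, at 23.9, 4.38 and 13.2 FPKM (2.21). Of 9 compared skin genes 3 rose, among them the basal keratin gene Krt14 at 2.70 and 0.646 FPKM (1.17) and listed at 0 in the Lmna knockout. The adipocyte markers summed to 286, 101 and 87.4 FPKM, the bulk of it Cfd. The keratinocyte markers summed to 6.52, 2.83 and 2.78 FPKM and the hepatocyte markers to 12.3, 3.77 and 1.71 FPKM. The part of these cell types in the results was not tested. Nnat, an imprinted gene for a small membrane protein that fat and nerve express, was at 109, 31.7 and 13.6 FPKM (1.74), the single rise among 22 compared imprinted genes (median 0.05).

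**Figure D4:**
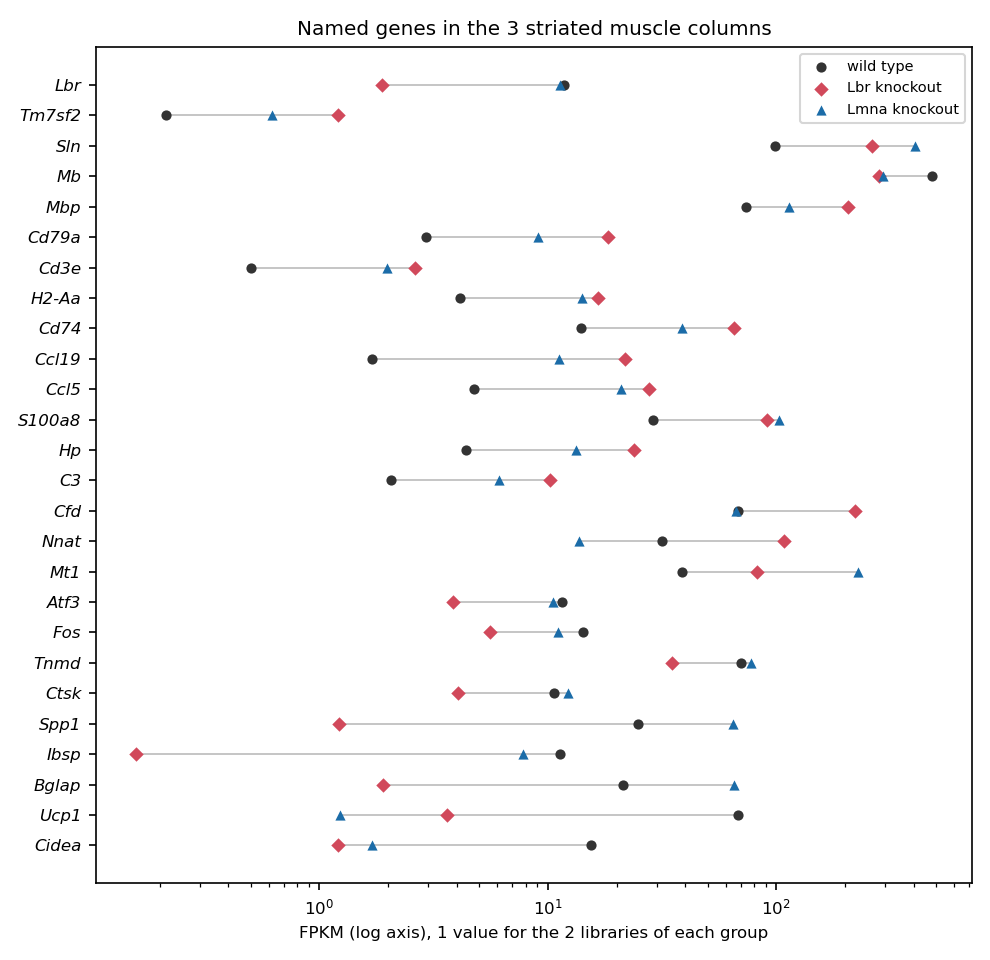
FPKM on a log axis of 26 genes in the wild-type (black circle), Lbr-knockout (red diamond) and Lmna-knockout (blue triangle) muscle columns, 1 value per column. Lbr, Spp1, Ibsp, Bglap and Ctsk are low in the Lbr knockout alone, Ucp1 and Cidea are high in the wild type alone, and Cfd and Nnat are high in the Lbr knockout alone.

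Stress genes moved in both directions. The metallothioneins, small cysteine-rich proteins that bind zinc and copper, rose: Mt1 was at 82.7 FPKM in the Lbr knockout, 38.8 FPKM in the wild type and 227 in the Lmna knockout (1.07), and Mt2 at 31.8, 13.4 and 83.2 FPKM (1.19). In both genes the Lmna knockout was the highest column. With the mean of the wild-type and Lmna-knockout columns as the control, the signs turned, to -0.68 for Mt1 and -0.59 for Mt2. The other 7 compared genes of the list, zinc transporters, Mt3 and the zinc sensor Mtf1 among them, did not change.

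The promoters of both genes are shown because both rose and because their known control is through metal response elements, the sites of the zinc sensor MTF1. They are again RefSeq sequences of GRCm38.p6, with Mt1 at chr8:94178839-94179138 and Mt2 at chr8:94172368-94172667, both on the plus strand. Capitals mark matches to TGCGCNC or TGCACNC on either strand.
Mt1: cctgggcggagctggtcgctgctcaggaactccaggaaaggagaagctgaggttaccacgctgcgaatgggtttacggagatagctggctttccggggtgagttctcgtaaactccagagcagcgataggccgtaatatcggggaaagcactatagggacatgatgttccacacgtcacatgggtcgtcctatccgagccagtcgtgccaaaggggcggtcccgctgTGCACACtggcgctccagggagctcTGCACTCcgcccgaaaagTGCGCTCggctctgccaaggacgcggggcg
Mt2: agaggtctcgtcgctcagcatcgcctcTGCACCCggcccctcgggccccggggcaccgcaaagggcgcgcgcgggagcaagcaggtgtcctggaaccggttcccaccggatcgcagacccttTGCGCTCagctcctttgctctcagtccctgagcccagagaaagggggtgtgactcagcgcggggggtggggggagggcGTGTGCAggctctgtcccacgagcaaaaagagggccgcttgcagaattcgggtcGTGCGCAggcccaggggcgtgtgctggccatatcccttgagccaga
The window of Mt1 holds 3 matches and that of Mt2 holds 4. Either pattern stood in 25.7% of the 32841 promoters, and 3 or more matches in 1.97%. A match of these short letters is a description and not a bound site.

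Immediate early genes, which are transcribed within minutes of a stimulus, showed 2 falls and 0 rises among 20 compared (median -0.06). Atf3 was at 3.86 FPKM in the Lbr knockout, 11.5 FPKM in the wild type and 10.6 in the Lmna knockout (-1.36). Fos was at 5.56, 14.2 and 11.1 FPKM (-1.21), and Egr1 at 7.48, 13.6 and 8.30 FPKM (-0.79). Zfp36, which encodes a protein that destabilises messages of the same class, lay the other way at 9.07, 4.56 and 10.5 FPKM (0.86). Of 20 heat shock genes 19 were below the wild type, none by 2-fold, with a median of -0.19. The inducible Hspa1b was at 1.31, 2.47 and 5.35 FPKM (-0.59). The 16 compared p53 target genes had a median of 0.12, and the 23 compared mitosis genes had one of -0.12, with 0 changes in either list. The 17 clock genes showed no change of 2-fold, with Per1 at 14.2, 7.83 and 17.5 FPKM (0.78). Among 23 compared genes that mark the position of a muscle in the body, 1 rose: Pitx3 was at 6.07, 2.40 and 6.06 FPKM (1.06), while Tbx1, a gene of head muscle, was at 2.92, 5.75 and 4.51 FPKM (-0.79).

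Several of the largest single differences belonged to rows of close gene copies, for which the sums over the copies were taken. How much sequence the rows share was not measured. The row named Ccl21a,Gm1987 was at 26.1 FPKM in the Lbr knockout, 0.00249 FPKM in the wild type and 17.2 in the Lmna knockout, with a log2 difference of 4.75. The row of its copy Gm1987 was at 0.0375, 10.5 and 0.0820 FPKM, so the values change places between rows. Summed over the 4 rows of Ccl21, a chemokine of lymph node stroma and lymphatic vessels, the columns held 32.2, 13.8 and 20.2 FPKM, and the difference was 1.17. Pisd-ps1 (2.74) and Pisd-ps3 (-3.16) were likewise opposite, while the 3 Pisd pseudogenes summed to 7.77, 10.5 and 9.70 FPKM (-0.40). Hist1h2ap fell on its own row, but its sum with the shared row was 24.2, 22.4 and 18.7 FPKM (0.11). Lgals6 (2.53) and its relative Lgals4 summed to 9.49, 5.51 and 15.5 FPKM (0.69). The aldose reductase gene Akr1b3 was at 14.1, 2.31 and 7.06 FPKM (2.19). Its relatives are distinct genes, with Akr1b8 at 2.14, 2.82 and 0.937 FPKM and Akr1b10 at 19.5, 22.7 and 16.3 FPKM. Both were lower in the Lbr knockout than in the wild type. Summed, the 3 rows held 35.7, 27.8 and 24.3 FPKM (0.35), with Akr1b10 the largest part. The class I rows of the H2-Q family, among them H2-Q9 (2.30), stayed high when summed, at 7.38, 1.41 and 6.68 FPKM (1.796). Values of such rows are uncertain, and for Pisd, Hist1h2ap and Lgals6 the change of 2-fold is lost in the sum. It is lost for Akr1b3 as well, though that sum is over distinct genes.

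**Figure D5:**
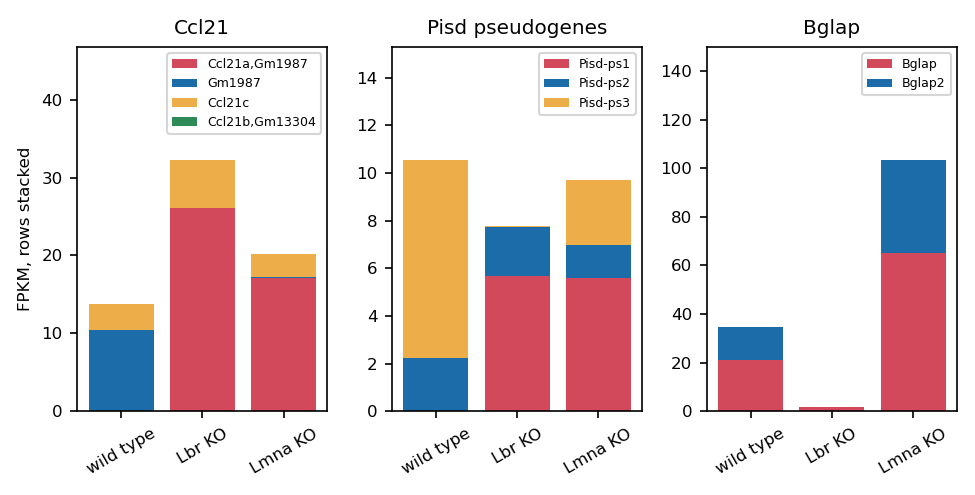
Stacked FPKM of the rows of Ccl21, of the Pisd pseudogenes and of osteocalcin (Bglap) in the wild-type, Lbr-knockout and Lmna-knockout columns. For Ccl21 and Pisd the row that carries the signal differs between columns while the totals differ less (13.8 against 32.2 and 10.5 against 7.77 FPKM), and for Bglap the total is low in the Lbr knockout at 1.90 FPKM.

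The Lmna-knockout column gives a further reference, though it shares the wild-type column and is itself a knockout. At least 2-fold above both other columns stood 22 genes, which is 0.182% of those compared, and 15 genes, or 0.124%, stood at least 2-fold below both. The first group held, among others, Cd79b, Cxcl13, Cfd, Retn, Nnat, Krt14, Krtdap and the plasma protein genes Alb, Ahsg, Apoa1 and Apoa2. The second held, among others, Lbr itself, the bone genes Spp1, Ibsp, Bglap, Dmp1 and Ctsk, the matrix protease genes Mmp9 and Mmp13, Timp1 and Atf3. Apoa1 was at 4.06, 1.08 and 0.361 FPKM, and Krtdap, a gene of differentiating keratinocytes, at 8.48, 3.70 and 1.98 FPKM. Of the rises in the immune lists, the first group held Cd79b, Cxcl13 and the complement gene Cfd, which fat cells make. For others, such as Cd37, Ccl5 and Glycam1, both knockouts stood above the wild type. In cultured Lbr-knockout myoblasts several common leukocyte genes, and the class II gene Cd74, were also above the wild type of the same litter. Cd52 was at 25.4 against 4.64 FPKM (2.23), Coro1a at 16.6 against 3.98 FPKM (1.82), Ptprc at 6.71 against 2.10 FPKM (1.31) and Cd74 at 4.09 against 1.18 FPKM (1.22). In wild-type myoblasts of the Lmna litter the same 4 genes stood at 27.1, 16.9, 3.72 and 4.76 FPKM, so the 2 wild types differed from each other as well. In Lbr-knockout myoblasts and their own wild type the B cell gene Cd79a was near 0, at 0.195 and 0.166 FPKM. Spp1 was at 693 against 488 FPKM in the same columns (0.50), in the other direction from muscle. Mbp was at 3.97 against 1.38 FPKM in myoblasts (1.06).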

How the data were processed

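RNA was sequenced from striated muscle of Lbr-knockout, Lmna-knockout and wild-type mice, 2 libraries per group, prepared with the NuGEN complete RNA-Seq protocol from TRIZOL and RNeasy RNA, per the labels' protocols. The authors deposited FPKM values, 1 value per gene and group, with 0 columns left unmatched to a group. The submitters' processing notes name mm9 as the genome. How reads were aligned and quantified, with which annotation, and how 2 libraries became 1 column is not given in the sources used here. Printed values describe these libraries and not a spread between animals.

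Differences were computed on log2(FPKM + 1), with 1 as the pseudocount, for genes whose 3 muscle columns averaged 1 FPKM or more. The 61 genes that passed this mean but were listed at 0 in a compared column, 48 of them small RNAs, were left out, because a listed 0 may stand for an estimate that failed. A difference of 2-fold stood in place of a test. The members and lists were chosen with earlier results of these data known, so no list was tested. The pancreas list and the groups of close copies and relatives were added after the values were seen, and 17 list members had no row in the table. Named genes are Lbr, Lmna, Lmnb1, Lmnb2 and Emd, the 15 largest rises and falls, the 10 largest linear differences each way, list members past 2-fold and up to 6 further members of a described list, without small RNAs and predicted genes; defining markers are given at any value. Some genes that meet the rule are not reported here. Genes listed at 0, the members of copy groups and genes with a mean under the filter are named outside it, as are Thy1, Vpreb3, Fcer1g and Mtf1, chosen after their values were seen. The 14 gene names that a spreadsheet had turned into dates were not used. Promoters come from RefSeq, GRCm38.p6, another build than that of the files, matched by symbol. The calculation was checked on simulated data. Alternatives were pseudocounts of 0.1 and 5, other filters, centring, quantile normalization, another control and a 3-fold limit. Python 3.11.15, pandas 2.3.3, numpy 2.4.6 and matplotlib 3.10.9 were used.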

Additional observations from a re-analysis of the deposited data

How the results depend on the processing

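The counts of 157 rises and 32 falls depend on the settings. With a pseudocount of 0.1 they were 372 and 85, with one of 5 they were 38 and 10, with a mean of at least 5 FPKM 54 and 13, and at a limit of 3-fold 37 and 14. With genes listed at 0 kept there were 183 rises and 57 falls. With the mean of the wild-type and Lmna-knockout columns as the control there were 52 rises and 42 falls, a rising share of 55.3% in place of 83.1%. Centring the columns on their medians gave 125 and 47, a share of 72.7%, quantile normalization gave 124 and 48, a share of 72.1%, and the median of all genes went from 0.10 to -0.02 and -0.00. The remaining settings stayed within 1.5 times. No filter gave 167 and 37. Copies and close relatives summed, or small RNAs left out, gave 151 and 29 each, both chosen after seeing the data. With no filter, the 4 list medians past 1 in size went under 1. These were the medians of the common leukocyte, MHC class II, bone and pancreas lists. Among single genes, Mt1 went to -0.68 and Mt2 to -0.59 with the mean of the other muscle columns as the control, because the Lmna-knockout values of both are high. Of 96 named genes past 2-fold, 23 stayed past it under every setting applied to single genes that gave a value. The 3-fold limit, the summed copies and the omission of small RNAs were not applied to single genes. No paired analysis was possible because each muscle group is 1 pooled column, and for the same reason the planned omission of a library and the replicate block were not run. Depth is unknown, so low values carry an error that was not measured.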
